A study of Mus musculus with 12 samples.

Results

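The genes described here belong to the killing machinery of lymphocytes. They are Gzma, Gzmb, Prf1, Fasl, Nkg7, Ctsw, Srgn, Serpinb9 and Tnfsf10, and every probe set that the array's annotation assigns to one of these 9 symbols was taken, whatever its values. Of the 9 genes, 8 had a probe set, with 1 probe set each, among 8251 genes named by the annotation. Nkg7, which encodes a membrane protein of cytotoxic granules, was not analysed here.

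Thymocytes were taken at day 6 from reaggregate thymic organ culture (RTOC), in which thymocytes are mixed with thymic stroma, and were measured on 12 Affymetrix mouse arrays. The 3 groups held 4 arrays each, numbered 1 to 4. OT1 arrays held thymocytes with the transgenic OT1 T cell receptor, which recognises ovalbumin peptide on MHC class I; the labels name no peptide for them. HY_low and HY_high arrays held thymocytes with the transgenic HY receptor, which recognises a peptide of the male protein Smcy, cultured with Smcy peptide at 1e-07 M in HY_low and at 1e-05 M in HY_high. The sample titles also use different letters for the HY groups (ab and aa), which are not explained, so the dose cannot be told apart from what the letters mark. Between OT1 and either HY group the receptor and the peptide changed together. The labels give neither a sort nor a mouse strain, and do not say that arrays came from separate cultures, so p-values measure only the spread between these arrays.

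The deposited values are linear intensities with a lowest value of 1. Array medians lay between 3.33 and 3.97, and between 3.0% and 22.5% of the values of an array stood at 1, so intensities under 8 are called dim here. Among arrays numbered 2 this share differed by group, at 19.0% in OT1, 5.2% in HY_low and 3.0% in HY_high. Its part in the values of dim genes was not tested. Of 12 T lineage markers 9 had a probe set, and 7 of them read at least 8 on all 12 arrays. Arrays with the same number were alike across groups: deviations from the group means correlated at 0.34 to 0.59 in the 12 pairs with the same number and at -0.40 to 0.16 in the 36 other pairs. The numbers therefore pair the arrays by the data, while the labels do not state it. Limma was fitted without the number, and again with the number as a block.

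Cytotoxic lymphocytes kill by 2 routes. In the first, granules are released against the target: perforin (Prf1) opens the membrane, granzymes (Gzma, Gzmb) are serine proteases that enter and cleave proteins of the target, and serglycin (Srgn) is the proteoglycan core on which granule contents are packed. Cathepsin W (Ctsw) is a cysteine protease found in cytotoxic cells, and Serpinb9 is an inhibitor of granzyme B that shields the killer cell itself. In the second, death ligands of the TNF family, FasL (Fasl) and TRAIL (Tnfsf10), engage death receptors on the target. Conventional thymocytes hold little of this machinery, and it is better known from natural killer (NK) cells, mature cytotoxic T cells and some lymphocytes selected by agonist peptide.

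The stretch before the transcription start is shown for 4 of these genes, so that the granule proteases, the pore former and the death ligand can be compared at the sequence level. RefSeq promoter windows (build GRCm38.p6) were found for 8 of the 9 genes, and Ctsw is the gene without one. Each line gives the 250 bases before the annotated start, 5′ to 3′. Capitals mark any of 4 short motifs, searched on both strands: TGTGGT, a core bound by RUNX factors; TGANTCA, bound by AP-1; TGACG, the core of the cyclic AMP response element; and GGAAA, a core bound by NFAT.
Gzmb (chr14:56262335-56262584, - strand): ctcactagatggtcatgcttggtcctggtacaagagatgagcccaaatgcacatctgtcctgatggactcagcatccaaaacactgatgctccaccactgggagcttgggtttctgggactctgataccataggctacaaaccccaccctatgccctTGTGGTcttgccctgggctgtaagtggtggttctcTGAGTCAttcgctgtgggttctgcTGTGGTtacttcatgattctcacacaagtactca
Gzma (chr13:113100982-113101231, - strand): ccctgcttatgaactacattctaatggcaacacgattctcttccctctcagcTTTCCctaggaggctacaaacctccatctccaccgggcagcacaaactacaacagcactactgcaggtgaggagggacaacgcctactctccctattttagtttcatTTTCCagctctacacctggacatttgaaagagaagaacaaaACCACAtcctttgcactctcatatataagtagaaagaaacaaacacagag
Prf1 (chr10:61297586-61297835, + strand): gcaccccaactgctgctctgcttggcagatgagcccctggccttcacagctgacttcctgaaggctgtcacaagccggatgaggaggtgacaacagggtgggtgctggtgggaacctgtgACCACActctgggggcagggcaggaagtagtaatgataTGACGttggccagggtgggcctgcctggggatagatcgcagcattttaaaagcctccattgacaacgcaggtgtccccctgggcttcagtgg
Fasl (chr1:161788496-161788745, - strand): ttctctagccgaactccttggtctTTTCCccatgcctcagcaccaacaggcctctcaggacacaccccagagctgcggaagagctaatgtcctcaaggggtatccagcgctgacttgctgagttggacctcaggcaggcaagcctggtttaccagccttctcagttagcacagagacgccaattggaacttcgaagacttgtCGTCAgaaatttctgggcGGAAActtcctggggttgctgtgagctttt
In the Gzmb window TGTGGT occurs at 93 and at 34 bases before the start, with TGAGTCA at 58 bases. The Gzma and Prf1 windows hold TGTGGT on the opposite strand, at 50 and at 130 bases. The Fasl window has no TGTGGT and holds TGACG on the opposite strand, at 48 bases. The 8 genes with a window include Nkg7 and have 9 windows, since Srgn has 2, of which only the second holds matches. TGTGGT was found in 5 of the 9 windows, where 14.0% of 32851 windows of the same length hold it, and TGANTCA in 1, where 6.75% do. TGACG was found in 4 of the 9, against 17.8% of windows, and GGAAA in 6, against 55.6%. No matches overlapped in these windows. A match of such short letters is a description of the sequence and not a binding site.

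No killing gene passed limma's adjusted p of 0.05 in any of the 3 comparisons. In HY_high against HY_low 0 of 8 passed, where 0.023% of 8695 probe sets did, and with the number as a block also 0 of 8, where 0.345% did. In HY_low against OT1 the counts were 0 of 8 without the block (0.023% of all) and 0 of 8 with it (0.092%). In HY_high against OT1 they were 0 of 8 without (0.173%) and 0 of 8 with it (1.36%). An unadjusted p under 0.05 was found without the block for 1 of 8 in HY_high against HY_low (2.96% of all), for 0 of 8 in HY_low against OT1 (2.65%) and for 1 of 8 in HY_high against OT1 (4.08%). With the block these counts were 3 of 8 (11.1%), 1 of 8 (8.37%) and 4 of 8 (11.7%). The comparisons share arrays, so their counts are not independent of each other.

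**Figure D1:**
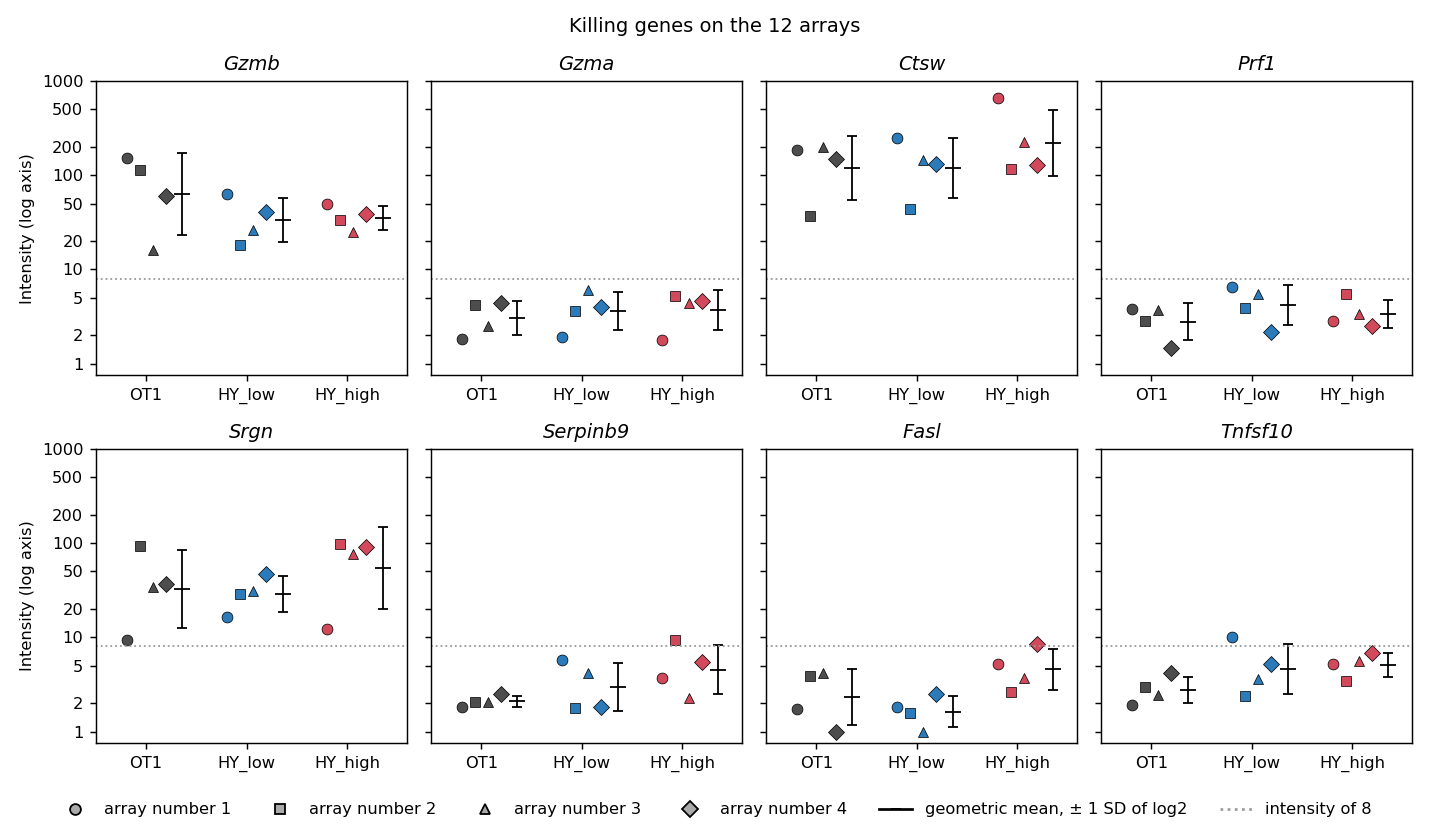
Intensity of the 8 measured killing genes on a log axis, by group. Each symbol is 1 array and its shape the array number, the bar beside each group is the geometric mean with 1 SD of the log2 values (n = 4), and the dotted line marks an intensity of 8. Gzmb, Ctsw and Srgn lie above 8 on all 12 arrays, while Gzma and Prf1 lie below it on all 12.

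Gzmb, granzyme B, was measured above 8 on every array (probe set 102877_at). On OT1 arrays 1 to 4 it read 152, 115, 16 and 59.9, on HY_low arrays 63.0, 18.3, 26.0 and 40.5, and on HY_high arrays 49.3, 33.5, 24.7 and 38.3. The OT1 arrays held both the highest and the lowest of the 12 values, and the 3 groups overlapped. Geometric means of 63.9 (OT1), 33.2 (HY_low) and 35.4 (HY_high) came with SDs of 1.45, 0.78 and 0.41 on the log2 scale (n = 4 each). Against OT1 the log2 difference was -0.95 ± 0.60 (SE) in HY_low and -0.85 ± 0.60 in HY_high (limma adjusted p = 1 for both). With the block the standard error was 0.38, the interval ran from -1.76 to -0.14 for HY_low and from -1.66 to -0.04 for HY_high, and the adjusted p was 0.485 and 0.393. Gzmb read lower than in OT1 within 3 of the 4 numbers in either HY group, and higher within number 3. Single arrays moved these values: without OT1 array 3 the differences were -1.61 and -1.52, and without OT1 array 1 they were -0.53 and -0.44. Between the HY doses the difference was 0.09, with a 95% interval from -1.18 to 1.37, or from -0.72 to 0.90 with the block.

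Gzma, granzyme A, was dim throughout (probe set 102995_s_at, of a type that can read more than 1 transcript). It read 1.84, 4.20, 2.54 and 4.37 on the OT1 arrays, 1.94, 3.63, 6.08 and 4.01 on the HY_low arrays, and 1.77, 5.28, 4.42 and 4.57 on the HY_high arrays. Array 1 was the lowest in each group, and the groups overlapped over nearly their whole range. The geometric means of 3.04, 3.62 and 3.71 differed by less than the spread between arrays, whose SD was 0.60 to 0.72 on the log2 scale. The log2 difference was 0.03 between the HY doses, 0.25 for HY_low and 0.28 for HY_high against OT1 (limma adjusted p = 1 for each). Scaled to one median, the difference between the doses was -0.01.

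Ctsw, cathepsin W, read 183, 37.3, 201 and 149 on OT1 arrays 1 to 4, 249, 43.7, 145 and 131 on the HY_low arrays, and 668, 117, 228 and 129 on the HY_high arrays (probe set 92214_at). HY_high array 1 was the highest of the 12, array 2 was the lowest in each group, and the groups overlapped. Geometric means of 120 in OT1, 120 in HY_low and 219 in HY_high had SDs of 1.14, 1.05 and 1.15 on the log2 scale. The log2 difference was 0.87 ± 0.66 for HY_high against HY_low and also 0.87 ± 0.66 against OT1 (limma adjusted p = 1 for both). With the block the standard error was 0.29 and the interval ran from 0.26 to 1.48 between the doses and from 0.27 to 1.48 against OT1. The adjusted p with the block was 0.282 and 0.187, and the unadjusted p 0.00765 and 0.00749. By number the dose difference was 1.43, 1.43, 0.65 and -0.02. Without HY_high array 1 it was 0.34, and without HY_low array 2 it was 0.39. Against OT1, the difference was 0.34 without HY_high array 1 and 0.31 without OT1 array 2. HY_low and OT1 did not differ beyond their spread, with a log2 difference of 0.00 and an interval from -1.39 to 1.39.

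Prf1, perforin, stayed below 8 on all 12 arrays (probe set 93931_at). The OT1 arrays read 3.84, 2.87, 3.74 and 1.45, the HY_low arrays 6.54, 3.94, 5.46 and 2.15, and the HY_high arrays 2.82, 5.51, 3.35 and 2.54. Array 4 was the lowest in each group, and the groups overlapped. The geometric means were 2.78, 4.17 and 3.39. HY_low exceeded OT1 within 4 of 4 numbers, by 0.46 to 0.77 on the log2 scale, yet the difference of 0.58 ± 0.49 did not pass (limma adjusted p = 1, or 0.740 with the block). It was 0.27 without OT1 array 4, 0.37 without HY_low array 1 and 0.90 without HY_low array 4. Of the 8 genes 1 was higher within 4 of 4 numbers in this comparison, where 9.73% of all probe sets were, and 0 were lower within 4 of 4, where 7.38% were.

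Srgn, serglycin, was above 8 on every array (probe set 94085_at). It read 9.40, 94.3, 34.1 and 37.0 on the OT1 arrays, 16.4, 28.9, 31.4 and 46.8 on the HY_low arrays, and 12.3, 98.9, 77.4 and 92.0 on the HY_high arrays. Array 1 was far below the rest in HY_high and lowest in each group, while HY_high arrays 2 to 4 lay above all 4 HY_low arrays. Geometric means of 32.5 (OT1), 28.9 (HY_low) and 54.3 (HY_high) came with SDs of 1.37, 0.63 and 1.43 on the log2 scale. Between the doses the log2 difference was 0.91 ± 0.70 (limma adjusted p = 1). With the block it had an interval from 0.19 to 1.64, an unadjusted p of 0.0168 and an adjusted p of 0.339. Without HY_high array 1 the difference was 1.62, and without HY_high array 2 it was 0.62. Srgn was higher in HY_high than in OT1 within 4 of 4 numbers, by 0.07 to 1.31, with a difference of 0.74 ± 0.70 that did not pass (limma adjusted p = 1, or 0.410 with the block) and was 0.14 without OT1 array 1 and 1.45 without HY_high array 1. Leaving out OT1 array 2, HY_high array 2 or HY_high array 4 gave 1.25, 0.45 and 0.49. HY_low and OT1 differed by -0.17, with an interval from -1.65 to 1.31.

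Serpinb9, the granzyme B inhibitor, was dim on 11 of the 12 arrays (probe set 98405_at). OT1 arrays read 1.82, 2.05, 2.04 and 2.5, HY_low arrays 5.72, 1.79, 4.15 and 1.82, and HY_high arrays 3.67, 9.35, 2.28 and 5.46. The OT1 values lay close together, with an SD of 0.19 on the log2 scale, against 0.85 in HY_low and 0.86 in HY_high, and the OT1 and HY_high ranges overlapped between 2.28 and 2.5. The geometric means lay in the order OT1, HY_low and HY_high, at 2.09, 2.97 and 4.55, and neighbours in that order did not differ beyond their spread. HY_high against OT1 gave a log2 difference of 1.12 ± 0.52, an unadjusted p of 0.0462 and a limma adjusted p of 1 (0.410 with the block). With intensities under 8 set to 8 this difference was 0.06, since HY_high array 2 alone exceeded 8.

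**Figure D2:**
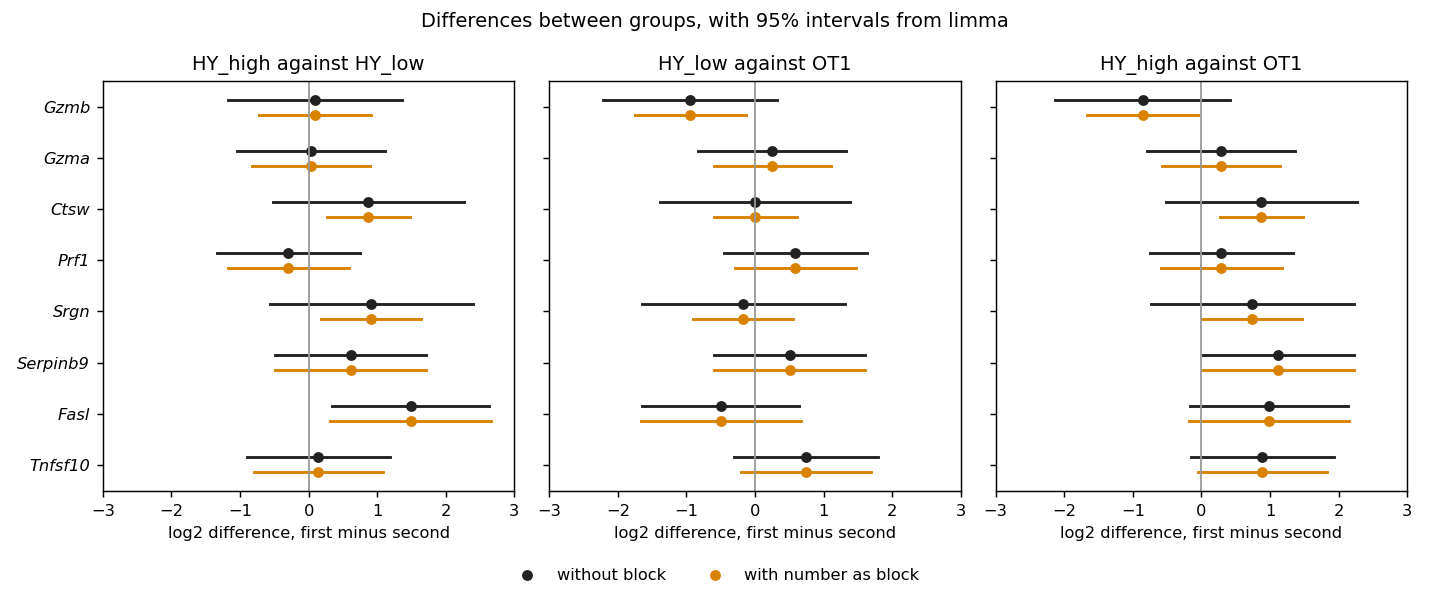
Log2 differences (points) with 95% intervals (lines) for the 8 killing genes in the 3 comparisons, from limma without the array number (black) and with the number as a block (orange). The block narrows the intervals of Gzmb, Ctsw and Srgn, as for Ctsw in HY_high against HY_low, from -0.52 to 2.26 without it and from 0.26 to 1.48 with it, and leaves those of Fasl and Serpinb9 nearly as wide.

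The death ligands were read near the bottom of the scale. Fasl, which encodes FasL, read 1.74, 3.87, 4.22 and 1.0 on the OT1 arrays, 1.82, 1.57, 1.0 and 2.48 on the HY_low arrays, and 5.23, 2.66, 3.67 and 8.54 on the HY_high arrays (probe set 97113_at). Every HY_high array lay above every HY_low array, by a margin from 2.48 to 2.66, while OT1 overlapped both. It was the only one of the 8 genes whose groups did not overlap in HY_high against HY_low, where 2.02% of all probe sets did not. The geometric means were 1.63 in HY_low, 2.31 in OT1 and 4.57 in HY_high, 2.80-fold higher at the higher dose. The log2 difference was 1.49 ± 0.54, with a 95% interval from 0.34 to 2.63, higher within 4 of 4 numbers, an unadjusted p of 0.0141 and a limma adjusted p of 1 (0.335 with the block). Of the 8 genes 1 was higher within 4 of 4 numbers here, where 9.81% of all were, and 0 were lower, where 9.76% were. With intensities under 8 set to 8 the difference was 0.02, because HY_high array 4 alone exceeded 8.

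Tnfsf10, which encodes TRAIL, was dim on all arrays but HY_low array 1 (probe set 94112_at). It read 1.92, 2.98, 2.42 and 4.15 on the OT1 arrays, 10.0, 2.41, 3.57 and 5.25 on the HY_low arrays, and 5.15, 3.44, 5.59 and 6.79 on the HY_high arrays. The OT1 values tended to be low, but their highest exceeded the lowest of either HY group. The geometric means were 2.75, 4.61 and 5.09. Against OT1 the log2 difference was 0.89 ± 0.49 in HY_high and 0.74 ± 0.49 in HY_low (limma adjusted p = 1 for both, or 0.462 and 0.700 with the block). Without HY_low array 1 the difference in HY_low was 0.37. Between the doses it was 0.14, and with intensities under 8 set to 8 it was -0.08. Tnfsf10, Srgn and Serpinb9 were higher in HY_high than in OT1 within 4 of 4 numbers, making 3 of the 8 genes, where 10.4% of all probe sets were, and 0 of 8 were lower, where 8.74% were. In HY_low against OT1 the groups did not overlap for 0 of 8 genes (1.63% of all), nor for any in HY_high against OT1 (2.53% of all).

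Across the 8 genes the median log2 difference was 0.38 in HY_high against HY_low, with 7 above 0, where the median of all tested probe sets was 0.01 and 51.3% lay above 0. In HY_low against OT1 it was 0.13, with 5 above 0, against 0.01 and 51.0%. In HY_high against OT1 it was 0.81, with 7 above 0, against 0.02 and 51.4%. Prf1 was the gene below 0 between the doses, and Gzmb the one below 0 in HY_high against OT1. Between the doses Gzma (0.03), Gzmb (0.09) and Tnfsf10 (0.14) lay close to 0. With intensities under 8 set to 8 the dose difference was 0.02 for Fasl and 0.06 for Serpinb9.

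Several genes differed more between array numbers than between groups. Arranged by number and chosen after the values were seen, the 3 arrays of 1 number lay below the other 9 for 4 of the 8 genes, where this held for 18.2% of all probe sets. Gzma was at 1.77 to 1.94 on the arrays numbered 1 and at 2.54 or more elsewhere, and Srgn at 9.40 to 16.4 on arrays 1 and at 28.9 or more elsewhere. Ctsw was at 37.3 to 117 on arrays 2, against 129 or more, and Prf1 at 1.45 to 2.54 on arrays 4, against 2.82 or more. For 0 of 8 genes did the arrays of a number lie above the other 9, where 16.2% of probe sets did. Differences between numbers held 76.6% of the variance of Gzma, 71.5% of Ctsw, 70.9% of Srgn, 56.8% of Prf1 and 47.5% of Gzmb, against 4.57%, 15.4%, 12.6%, 16.3% and 20.2% between groups. For Fasl, Serpinb9 and Tnfsf10 the groups held more, at 45.9%, 35.9% and 34.3%, against 0.42%, 2.87% and 24.6% between numbers. Numbers held more than groups for 5 of the 8 genes and for 84.0% of all tested probe sets.

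**Figure D3:**
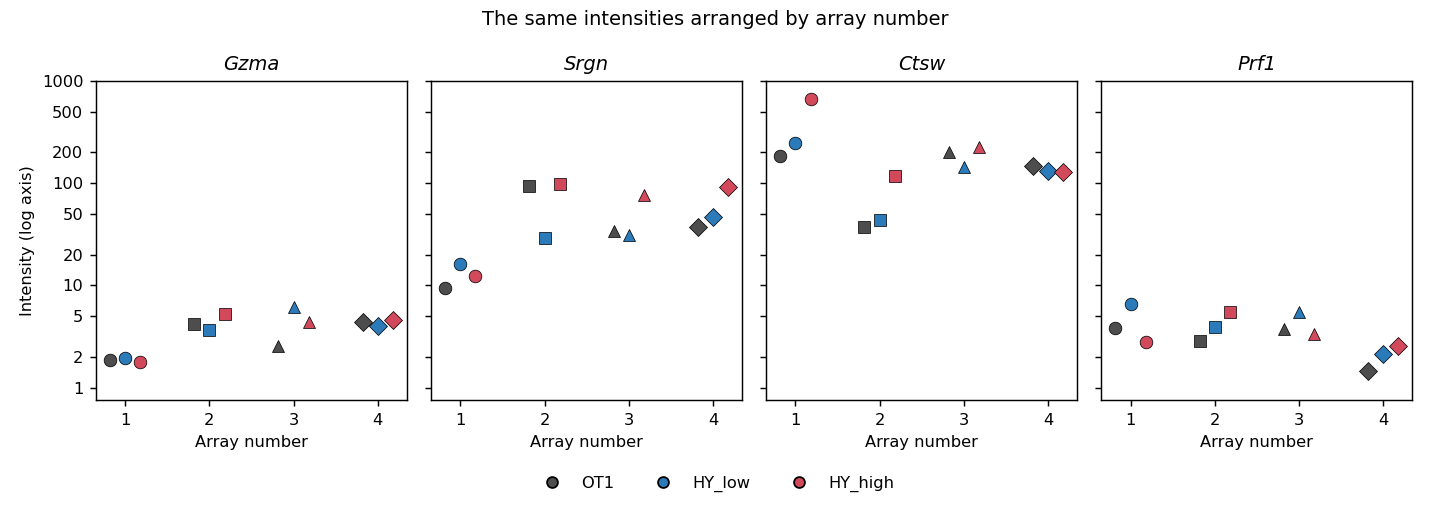
Intensities of Gzma, Srgn, Ctsw and Prf1 on a log axis, arranged by array number, with 1 symbol per array coloured by group. Arrays 1 are lowest for Gzma and Srgn, arrays 2 for Ctsw and arrays 4 for Prf1, in each of the 3 groups.

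A sign of RNA quality also differed by number. For the Gapdh control, signal at the 3′ end over that at the 5′ end came, as a log2 ratio, to 4.57 to 4.87 on arrays 1, 5.60 to 6.26 on arrays 2, 4.69 to 5.48 on arrays 3 and 2.95 to 3.27 on arrays 4. The actin control did not set the numbers apart in the same way: its ratio was 2.59 to 3.60, 2.02 to 2.99, 2.74 to 3.39 and 2.15 to 2.54, and arrays 2, highest by Gapdh, held its lowest value. The part of these ratios in the values of Gzma, Srgn, Ctsw and Prf1 was not tested. Markers of other cells were summed on each array, and the sums were not tested. The sums for B cell, neutrophil, thymic epithelium, fibroblast and erythroid markers had ranges that overlapped between all groups. T lineage sums overlapped too, at 1202 to 2384 in OT1, 1404 to 2676 in HY_low and 972 to 2434 in HY_high. Between the doses 1 of the 9 T lineage genes lay above 0, with a median of -0.34, and 0 were called without the block. With the block 1 was called lower in HY_high (0.345% of all called): Thy1, with means of 541, 555 and 234. Against OT1 2 were called lower with the block (1.36% of all called). Those for macrophage and dendritic cell markers were 43.0 to 53.8 in OT1, 50.9 to 88.7 in HY_low and 54.4 to 79.8 in HY_high. Of 19 NK cell markers 13 had a probe set. Their summed intensity ranged over OT1 arrays from 78.2 to 230, over HY_low arrays from 36.7 to 136 and over HY_high arrays from 183 to 399. In these groups 2, 2 and 5 of the markers reached 8 on any array. The brightest was Klrd1, with means of 100, 42.9 and 198, and it was not called between the doses (limma adjusted p = 0.0958 with the block). Klrc1, Klra2, Klra3, Klra7 and Itga2 stayed at 5.93 or below on all arrays. Of 9 tested NK markers 1 was called higher in HY_high than in HY_low, where 0.023% of all probe sets were called. It was Klrb1a (geometric means 1.22 in OT1, 1.49 in HY_low and 10.3 in HY_high, limma adjusted p = 0.0487 between the doses). With the block 3 of the 9 were called higher, where 0.345% of all were called. In HY_high against OT1 3 of the 9 were called higher (0.173% of all called), and 4 with the block (1.36%). Klrb1a and Fcer1g (means 1.17, 1.34 and 8.27) lay under 1.76 in OT1 and HY_low. A probe set had to exceed that mean intensity to be tested, so both were tested only through HY_high. Klrb1a, and with the block also Fcer1g, are among those called between the doses, so these counts are no independent support for a difference. Of the 3 measured genes of a shorter NK list only Tyrobp reached 8 on any array. Tyrobp, a signalling adaptor, had means of 3.40, 5.63 and 16.2, while Fcgr3 stayed at 4.58 or below and Ncr1 at 3.62 or below on all arrays. The sums of these 3 genes were 5.12 to 13.9, 5.3 to 12.4 and 13.1 to 36.7. Of the 2 tested 1 was called in HY_high against OT1 with the block, where 1.36% of all probe sets were. The 8 measured double-positive thymocyte genes summed to 520 to 1519 in OT1, 309 to 1830 in HY_low and 118 to 257 in HY_high. These sums are mostly the CD8 chains, with geometric means of 693, 644 and 4.52 for Cd8b1 and 340, 339 and 157 for Cd8a, while Cd4 stood at 6.18, 4.68 and 4.86. Of the 7 tested genes 1 was called lower in HY_high than in HY_low, where 0.023% of all probe sets were called (0.345% with the block). It was Cd8b1 (limma adjusted p = 0.000252, or 2.09e-06 with the block). In HY_high against OT1 1 of the 7 was called lower, with and without the block (1.36% and 0.173% of all called). The 2 measured gamma delta T cell genes summed to 10.7 to 40.0 in OT1, 11.9 to 41.0 in HY_low and 23.6 to 178 in HY_high. Blk, which reached 153 on 1 array and 8 on only 3 of the 12, carried the upper end, while Sox13 had means of 16.4, 15.7 and 20.3. The 12 measured mast cell and basophil genes, cells that also store Srgn, summed to 18.1 to 60.5, 27.3 to 44.9 and 33.7 to 83.4. Among them Kit had means of 2.12, 5.76 and 17.1 and reached 56.6, while Tpsb2 had 8.03, 6.39 and 3.68. Cpa3, Fcer1a and Hdc stayed at 4.66 or below on all arrays. The part of other cell types in the Srgn, Ctsw and Fasl values was not tested. In bulk RNA fewer cells of a type and less RNA per cell cannot be told apart.

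Other genes of the pathway were taken from 7 lists of 96 genes, of which 75 had a probe set and 59 were tested on their brightest probe set. Without the block 0 of 59 passed limma's adjusted p of 0.05 in any comparison, while 4, 1 and 9 had an unadjusted p under 0.05 in HY_high against HY_low, HY_low against OT1 and HY_high against OT1, where 2.96%, 2.65% and 4.08% of all probe sets had. With the number as a block 1, 0 and 3 passed, against 0.345%, 0.092% and 1.36% of all, and 10, 8 and 18 had an unadjusted p under 0.05, against 11.1%, 8.37% and 11.7%. Above 0 lay 34, 43 and 42 of the 59, with medians of 0.05, 0.18 and 0.28 on the log2 scale, in the same order of comparisons. Of all tested probe sets 51.3%, 51.0% and 51.4% lay above 0, with medians of 0.01, 0.01 and 0.02.

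The other granzymes were hardly read at all. Of 6 with a probe set, 5 stayed at 4.52 or below on all arrays. Gzmc reached 8.18, with geometric means of 1.59 in OT1, 1.25 in HY_low and 3.72 in HY_high (log2 difference between the doses 1.57 ± 0.53, limma adjusted p = 1, or 0.301 with the block). Its OT1 and HY_low means lay under the cut of 1.76 for testing, so it was tested only through HY_high.

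Among 10 tested genes of granzyme processing and granule proteins, 1 passed with the block. Ctss, cathepsin S, a lysosomal cysteine protease, had geometric means of 148 in OT1, 234 in HY_low and 296 in HY_high. HY_high exceeded OT1 by 1.0 on the log2 scale (limma adjusted p = 1, or 0.0275 with the block). Igf2r, a sorting receptor for lysosomal enzymes, had means of 6.74, 10.8 and 23.4, and Slpi, a protease inhibitor, 17.6, 11.6 and 7.41. HY_high against OT1 gave 1.80 for Igf2r (adjusted p = 0.922, or 0.0716 with the block) and -1.25 for Slpi (0.782, or 0.106). The list's medians were 0.18, 0.03 and 0.29 in the order of comparisons above. Of 11 genes of granule transport and release none passed, with or without the block. The lowest p there belonged to Snap23, a membrane fusion protein, at 1.61 in HY_high against OT1 (limma adjusted p = 0.615, or 0.0920 with the block). Vamp7, another fusion protein, had means of 2.0, 2.6 and 3.68 and Lyst, a regulator of lysosome size, 2.87, 2.66 and 1.67, and neither passed. The medians of this list were -0.01, 0.18 and 0.17. In HY_low against OT1 10 of the 11 genes lay above 0, where 51.0% of all tested probe sets did. Among them Ap3b1 (0.00084), Stx7 (0.02) and Coro1a (0.04) lay close to 0, and the lowest unadjusted limma p was 0.136, for Snap23. Of the 2 tested genes that protect from granzymes or related proteases, Serpinb6a had means of 4.64, 4.97 and 10.3 and Serpina3n 2.51, 2.63 and 3.47, and neither passed.

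Death receptors and their signalling genes numbered 11, of which 1 passed with the block. Tnfrsf1b, a TNF receptor, had means of 13.2 in OT1, 22.1 in HY_low and 34.0 in HY_high (1.36 ± 0.53 in HY_high against OT1, limma adjusted p = 0.942, or 0.0265 with the block). Traf2, an adaptor of TNF receptors, had means of 8.0, 15.6 and 16.1, and Cflar, an inhibitor of caspase 8 activation, 8.16, 11.5 and 12.6, without passing. Medians over the 11 genes were -0.14, 0.34 and 0.17. Of 4 tested ligands and cytokines 1 passed with the block. Tnfsf11, the ligand RANKL, had means of 4.03, 7.00 and 14.6 (1.85 ± 0.49 in HY_high against OT1, limma adjusted p = 0.304, or 0.0342 with the block). Tnf had 8.27, 4.76 and 4.10 and Lta 11, 15.8 and 16.7, and neither passed.

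Of 20 regulators of the killer programme 1 passed with the block. Id2, an inhibitor of E proteins, had means of 28.3, 15.7 and 71.1 (log2 difference between the doses 2.17 ± 0.68, limma adjusted p = 1, or 0.0104 with the block). Eomes, a T-box factor of cytotoxic lymphocytes, was dim on 10 of the 12 arrays and had its highest mean in OT1, at 5.71, against 1.83 in HY_low and 2.68 in HY_high. Its difference of -1.64 ± 0.47 in HY_low against OT1 did not pass (adjusted p = 1, or 0.207 with the block). Il12rb1, a chain of the interleukin-12 receptor, had means of 1.83, 2.66 and 5.29, and 1.53 in HY_high against OT1 did not pass (0.490, or 0.106 with the block). Over the 20 regulators the medians were 0.29, 0.16 and 0.30.

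**Figure D4:**
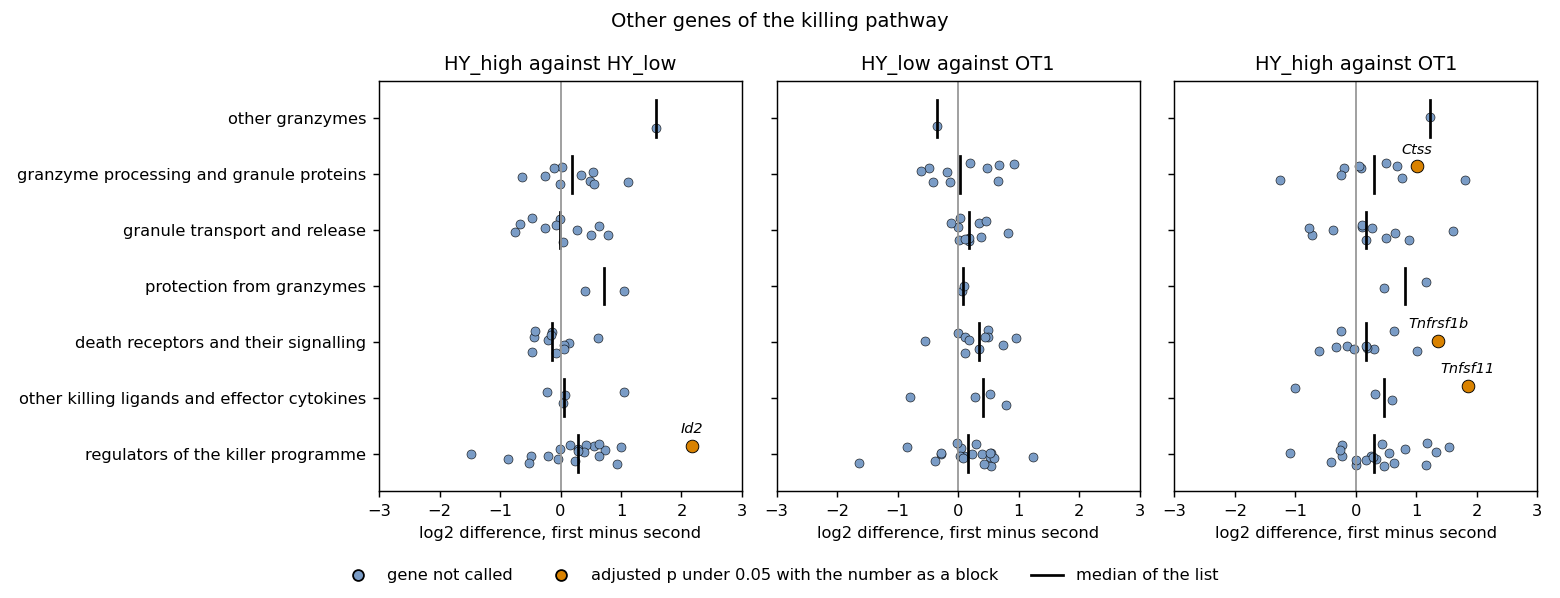
Log2 differences of the 59 other tested pathway genes in the 3 comparisons, by list. Each point is a gene on its brightest probe set, black lines are the medians of the lists, and orange points passed an adjusted p of 0.05 in limma with the array number as a block: Id2 between the doses, and Ctss, Tnfrsf1b and Tnfsf11 in HY_high against OT1.

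For the 3 killing genes with a geometric mean of at least 8, the genes whose log2 values ran most alike over the 12 arrays were found among 3594 probe sets. These correlations are descriptive, since arrays of 1 number share what sets them apart. Nearest to Ctsw was Cd7, a surface protein of T and NK cells (r = 0.95), followed by Tln1, which encodes talin (0.94), and Ppm1m, a phosphatase (0.93). Cd7 had geometric means of 93.0 in OT1, 75.4 in HY_low and 234 in HY_high. Nearest to Srgn were Ppp1cb, a phosphatase subunit (0.96), Trim59 (0.96) and Tcf12, the E protein HEB (0.94). For Gzmb they were Usf2, a transcription factor (0.83), Mtcp1 (0.82) and Gm29722 (0.80), and the means of Usf2 were 26.7, 22.5 and 22.7. With the group means taken out the same 9 correlations ran from 0.81 to 0.97.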

How the data were processed

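Thymocyte RNA was measured on 12 arrays in 3 groups of 4, as the sample titles group them. The deposited values are intensities on a linear scale, in a table of 12488 probe sets, and the sources used here do not give how the authors corrected, summarised and scaled them. Control probe sets (66) were left out, and intensities were put on a log2 scale with no further scaling. The lowest probe sets were left out by a cut at the 30th percentile of the mean log2 value (an intensity of 1.76). This kept 8695 for testing, including all 8 probe sets of the killing genes. Probe sets above the cut but under 8, called dim here, were tested. Of those tested, 7718 matched 1 gene in the platform's annotation, 295 several and 682 none, and current symbols were looked up by gene ID.

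Group means were fitted to the 12 arrays with limma 3.58.1 in R 4.3.3, leaving 9 residual degrees of freedom. Variances were moderated along an intensity trend. Both directions were tested (two-sided), and p-values were adjusted by Benjamini and Hochberg's method over those 8695, with a threshold of 0.05. Differences are log2, given with standard errors, and intervals are 95%. A second fit took the array number as a block, leaving 6 residual degrees of freedom; the pairing comes from the correlations of same-numbered arrays, not from the labels. The fit without the block was tested on simulated data. Those data held no likeness between arrays of the same number, so they do not test the block or the pairing.

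All probe sets of the killing genes are named. From each other list the genes named are those past the threshold with or without the block, filled up with those of smallest p to at most 3. Each gene of these lists stands for its brightest probe set. The killing genes and lists were chosen with earlier results of these data known. Aliases of genes already listed were counted once. No genome was given for the probe sets, so gene positions are not reported. The number of arrays limits the precision.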

Additional observations from a re-analysis of the deposited data

Results flagged for a closer look

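Single arrays stood far from the rest of their group for 2 of the 24 sets of 4 values (8 genes in 3 groups). For independent, normal values the test used allows about 1 in 20. Both sets flagged the same array, and the share over all probe sets was not worked out. Srgn on HY_high array 1, at 12.3 against 77.4 to 98.9 on the other arrays of the group, had a gap of 0.882 of the group's range on the log2 scale. Gzma on the same array, at 1.77 against 4.42 to 5.28, had a gap of 0.837. Both gaps exceed the 95% limit of Dixon's test for 4 values. Arrays 1 of the other groups were also the lowest for both genes. The 3 arrays numbered 1 lay below the other 9 for 9.13% of all tested probe sets.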

How the results depend on the processing

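The count of killing genes past the threshold was 0 in each comparison and stayed 0 under 24 alternatives each. These covered the replicate block, scaling, the filter, a floor at 8, an offset of 16, array weights, variance moderation, fits of the 2 groups compared, leaving out single arrays or numbers, and 2 combinations with the block added after the data were seen. The lowest adjusted p of any recomputed difference was 0.187, for Ctsw in HY_high against OT1 with the replicate block, which left 0 genes past the threshold in all comparisons. Of 558 recomputed differences 526 kept their direction and 32 turned. Turned values were -0.0147 for Gzma between the doses when scaled to one median, and -0.0805 for Tnfsf10 between the doses with the floor at 8, with or without the block. For Ctsw in HY_low against OT1 they were -0.0239 with quantile normalization (also with the block), -0.00612 with the offset and -0.22 with array weights. With arrays left out, the dose difference ranged from -0.27 to 0.39 for Gzma, from -0.19 to 0.40 for Gzmb, from -0.62 to 0.00654 for Prf1 and from -0.17 to 0.52 for Tnfsf10. HY_low against OT1 ranged from -0.0860 to 0.55 for Gzma, from -1.10 to 0.0245 for Fasl, from -0.56 to 0.49 for Ctsw and from -0.77 to 0.34 for Srgn. Prf1 in HY_high against OT1 ranged from -0.0267 to 0.53. The cause of these changes was not tested. With the floor at 8, Gzma and Prf1 had no value, and Fasl, Serpinb9 and Tnfsf10 rest on 1 array each.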
